A study of Mus musculus with 6 samples.

Results

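The genes described here are those of the plasma membrane and lysosomal amino acid transporter families Slc1, Slc3, Slc6, Slc7, Slc36, Slc38 and Slc43, measured in fully-grown mouse oocytes with and without normal Marf1. Members were all genes whose symbol began with 1 of these 7 family names, each read from 1 probe set, the one with the highest mean over the 6 arrays. The rule found 64 of 19938 genes. Of these, 62 encode carriers or their heavy chains, and 2, Slc6a19os and Slc7a6os, are opposite-strand genes named after their neighbours and are not carriers. The Marf1-mutant oocytes (Marf1 ENU/ENU, a chemically induced mutation on both copies) were compared with wild-type oocytes (Marf1+/+), 3 samples of each on 1 array per sample. All females shared the mixed C57BL/6J;C3HeB/FeJ background. They were also all primed for 46 hours, from day 21 of life, with 5 IU of eCG (equine chorionic gonadotropin, a hormone that drives follicles to grow), and oocytes came from 23-day-old mice. The oocytes were at the germinal vesicle (GV) stage, and their cumulus cells had been stripped off. Whether they were still transcribing was not measured. The number of animals or oocytes behind each sample was not given in the sources used here. Replicates are therefore samples of unstated independence, and p-values measure only the spread between them, which may be technical.

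Amino acid carriers move their substrates across membranes by cotransport with sodium, chloride or protons, or by exchange of one amino acid for another. In the growing follicle an oocyte takes up part of its amino acids itself and receives others through gap junctions from cumulus cells, which express carriers that the oocyte lacks, Slc38a3 among them. Mouse oocytes and early embryos also accumulate glycine through Slc6a9 (GLYT1), an organic osmolyte that keeps their volume steady without raising the salt concentration. Proline and betaine enter the fertilised egg through the SIT1 carrier of the Slc6a20 genes.

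Values are log2 expression after RMA, which scales the arrays to each other, so a difference in total RNA per oocyte cannot be seen. The deposited distributions were still not equal: medians over all rows were 4.56, 4.57 and 4.76 on mutant arrays and 4.6, 4.67 and 4.62 on wild-type arrays, and mutant replicate 3 had the highest median and the smallest SD (2.04). Nor can fewer cells of a type and less RNA per cell be told apart. A probe set's signal depends on its own probes, so levels were compared between samples for a gene and not between genes. As a guide to what is dim, the mean levels of 1194 olfactory and vomeronasal receptor genes were used: 95% of them lay under 4.53, called here the receptor-gene level. Marf1 itself (probe set 10437852) read 5.98, 6.40 and 6.16 in mutant replicates 1 to 3, against 9.21, 9.16 and 9.31 in wild type, so the labels and the target go together on every array. Whether its probes lie outside the mutated site was not tested. All 15 measured oocyte markers lay above the receptor-gene level, as did 7 of 14 markers of cumulus and granulosa cells, 4 of 10 of theca or stroma and 2 of 7 of blood, immune or endothelial cells. Mutant replicate 3 stood apart from the other mutant arrays, with r = 0.973 and 0.970 against them over all rows, where they correlated at 0.985 with each other. The counts below are therefore also given without it.

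Of the 64 members, 6 were lower and 0 higher in mutant oocytes, in limma's moderated test with Benjamini-Hochberg adjustment over all 35556 rows and a threshold of 0.05. Over all genes 4.04% were lower and 6.4% higher. The 6 were the taurine carrier Slc6a6, the cationic amino acid carrier Slc7a2, the neutral amino acid carrier Slc6a15, the proline carrier family member Slc6a20b, Slc6a21 and the glycine carrier Slc6a9. At an unadjusted p under 0.05 the same test had 9 members lower and 0 higher, where all genes had 13.5% lower and 11% higher. The median log2 fold change (mutant minus wild type) was -0.11 over the members and -0.04 over all genes, and 43 members were below 0 and 21 above. Most members that moved belong to Slc6, with 5 of 21 lower, against 1 of 16 in Slc7. In Slc1 (7 genes), Slc3 (2), Slc36 (4), Slc38 (11) and Slc43 (3), 0 genes passed in either direction, and the lowest unadjusted p in those families, that of Slc38a4, was 0.0469. Without mutant replicate 3, 4 members were lower and 0 higher. The number of lower calls was 1 without wild-type replicate 1, and 2 without either mutant replicate 2 or wild-type replicate 3. Over all 35556 rows the lower calls fell as well, from 1065 with all arrays to 896 without mutant replicate 3. They were 306 without wild-type replicate 1, 532 without mutant replicate 2 and 297 without wild-type replicate 3.

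Many members were dim. Over the 6 arrays 28 had a mean above the receptor-gene level, and 5 of these were lower and 0 higher, where all genes above that level had 6.33% lower and 10% higher. The median log2 fold change was -0.23 over these 28 members and -0.09 over all genes above the level. Among the 36 dimmer members 1 was lower and 0 higher, where all genes at or below that level had 0.354% lower and 0.602% higher. It was Slc6a21, whose wild-type mean lay above the level and whose mutant mean lay below it. In 15 members all 3 mutant values lay below all 3 wild-type values (17.7% of all genes), 9 of them among the 28 brighter members (25.2% of all genes above the level). Besides the 6 called genes these were Slc3a2, Slc6a4, Slc6a5, Slc6a14, Slc6a19, Slc7a11, Slc38a4, Slc43a1 and Slc43a3. In 1 member, Slc38a2, they lay above (12.9% of all genes).

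**Figure D1:**
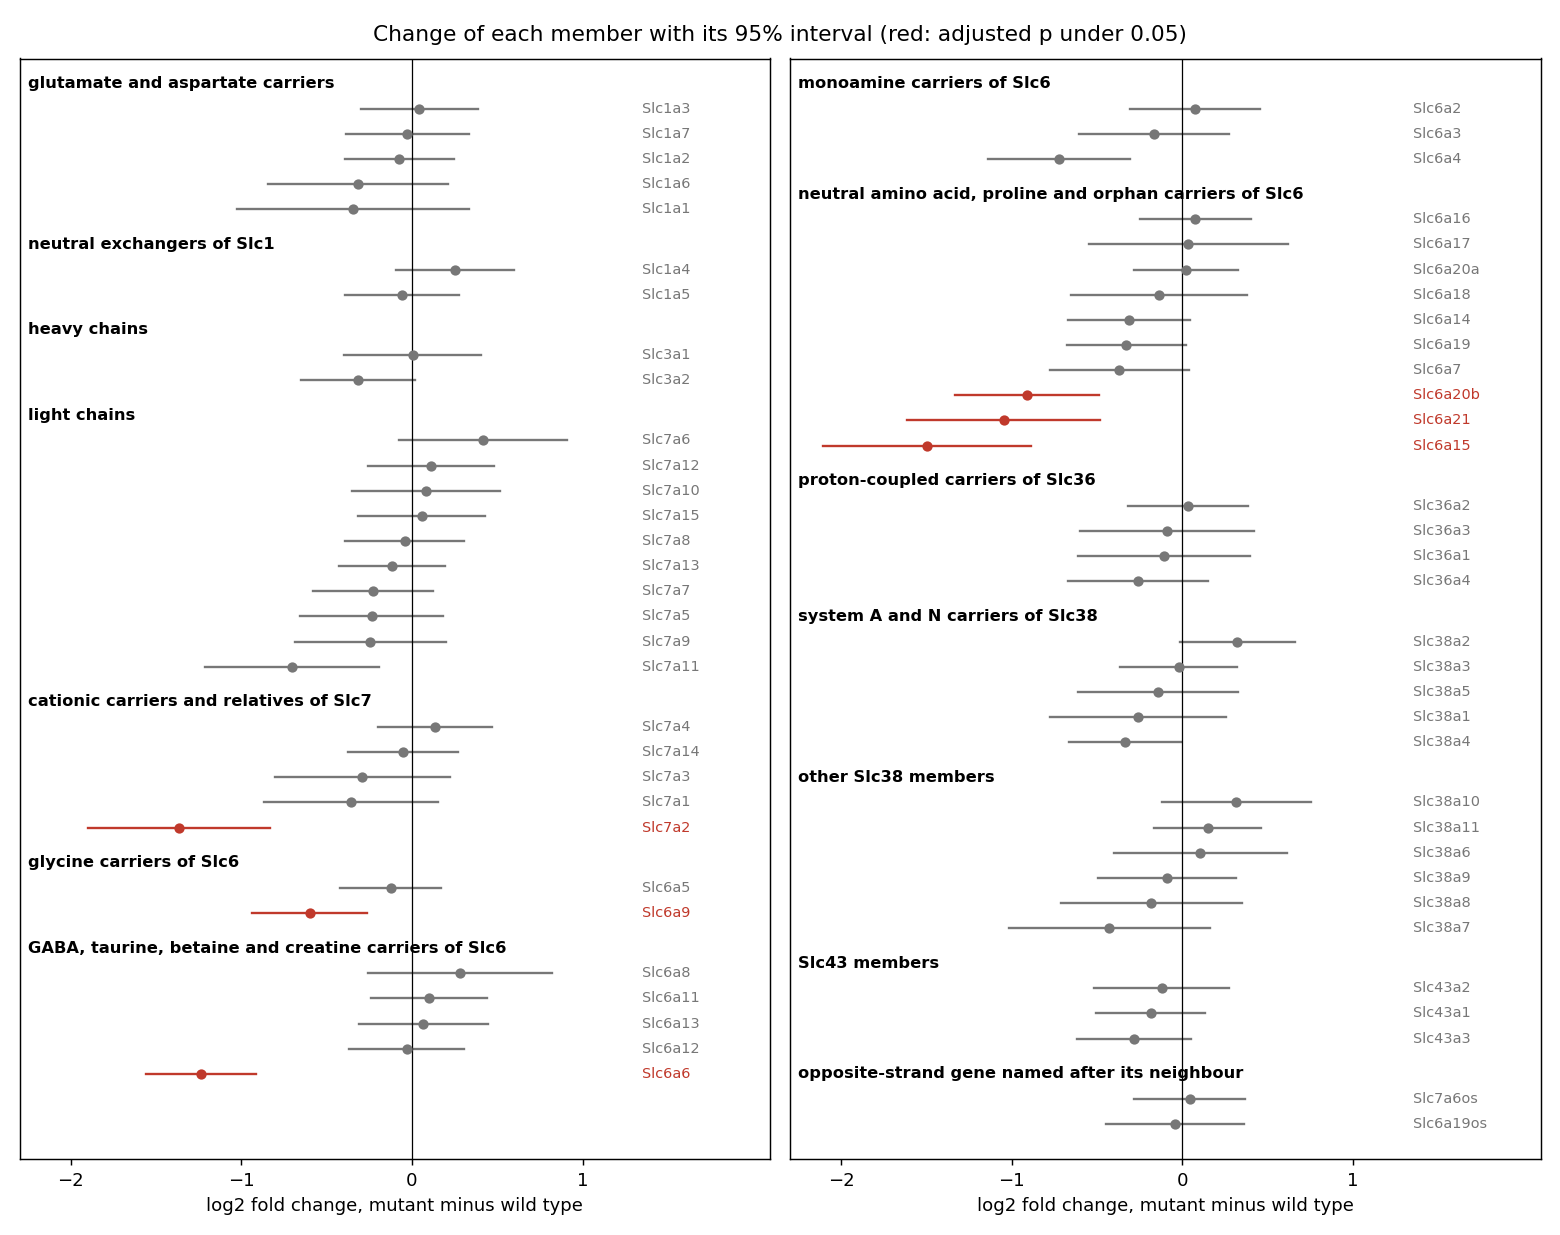
Log2 fold change (mutant minus wild type, horizontal axis) of each of the 64 members, grouped by role, with the 95% interval of limma's moderated test as a line. The 6 red members passed an adjusted p of 0.05 and all lie below 0, from -0.60 for Slc6a9 to -1.49 for Slc6a15, while the highest value is 0.42 for Slc7a6.

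**Figure D2:**
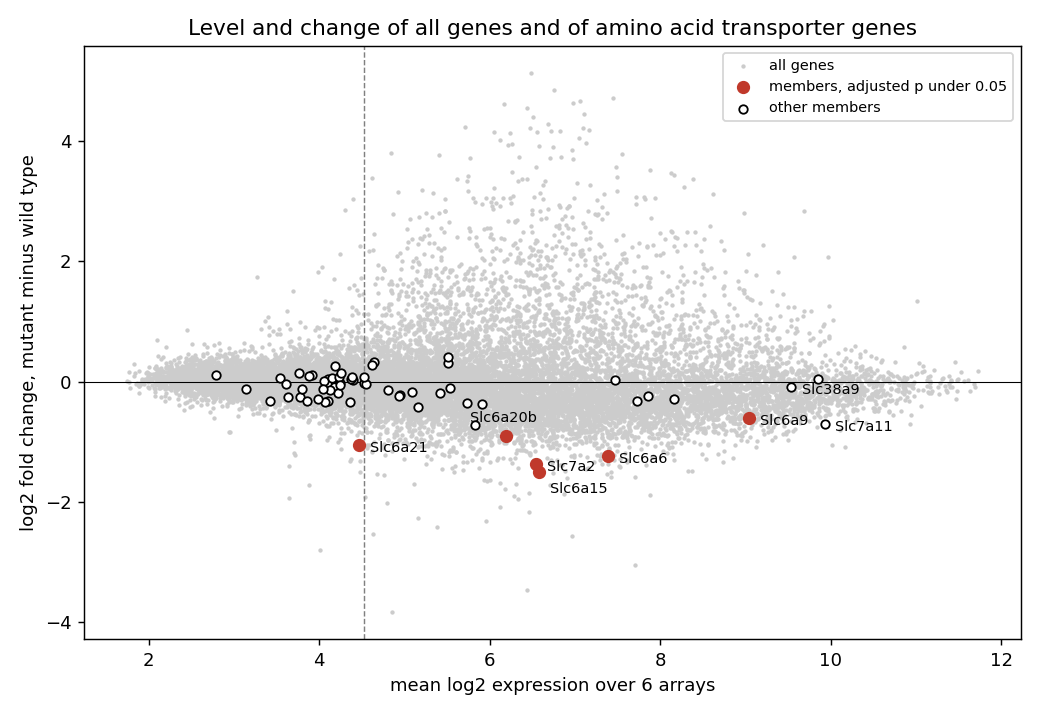
Mean log2 expression over the 6 arrays (horizontal axis) against log2 fold change, mutant minus wild type (vertical axis), for 19938 genes in grey and the members as circles, red where the adjusted p was under 0.05. The dashed line is the receptor-gene level of 4.53, and 36 members lie at or left of it.

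Neighbouring pairs of genes are shown first as sequence, because 1 gene of each pair fell and the other did not pass the test. Slc6a20b and Slc6a20a are adjacent protein-coding genes on chromosome 9, and Slc6a21 and Slc6a16 on chromosome 7. The windows run 5′ to 3′ from 250 bases before to 50 after the start that RefSeq gives in GRCm38.p6. Capitals mark matches, on either strand, to the letters of the TATA box (TATAAA), the CCAAT box (CCAAT), the GC box (GGGCGG), the E-box (CACGTG), the core of the amino acid response element (TGATGNAA), the homeodomain core (TAATTA) and a variant of that core (TAATTG).
Slc6a20b promoter (chr9:123632489-123632788, minus strand): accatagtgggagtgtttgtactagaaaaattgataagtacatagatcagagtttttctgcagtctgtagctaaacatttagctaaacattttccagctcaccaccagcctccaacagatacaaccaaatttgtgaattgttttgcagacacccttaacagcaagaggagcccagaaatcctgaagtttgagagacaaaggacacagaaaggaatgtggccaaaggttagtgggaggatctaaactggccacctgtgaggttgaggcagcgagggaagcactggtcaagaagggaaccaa
Slc6a20a promoter (chr9:123678783-123679082, minus strand): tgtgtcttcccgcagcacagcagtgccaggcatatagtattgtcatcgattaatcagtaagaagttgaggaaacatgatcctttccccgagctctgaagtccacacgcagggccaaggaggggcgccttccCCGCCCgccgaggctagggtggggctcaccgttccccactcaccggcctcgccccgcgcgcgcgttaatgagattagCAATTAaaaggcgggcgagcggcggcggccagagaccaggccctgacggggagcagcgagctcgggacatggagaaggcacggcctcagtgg
Slc6a21 promoter (chr7:45282623-45282922, plus strand): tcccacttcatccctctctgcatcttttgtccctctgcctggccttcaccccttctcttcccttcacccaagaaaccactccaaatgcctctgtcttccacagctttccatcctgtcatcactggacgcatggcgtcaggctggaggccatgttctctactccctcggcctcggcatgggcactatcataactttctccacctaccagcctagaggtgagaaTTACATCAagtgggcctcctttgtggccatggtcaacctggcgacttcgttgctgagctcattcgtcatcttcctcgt
Slc6a16 promoter (chr7:45240503-45240802, plus strand): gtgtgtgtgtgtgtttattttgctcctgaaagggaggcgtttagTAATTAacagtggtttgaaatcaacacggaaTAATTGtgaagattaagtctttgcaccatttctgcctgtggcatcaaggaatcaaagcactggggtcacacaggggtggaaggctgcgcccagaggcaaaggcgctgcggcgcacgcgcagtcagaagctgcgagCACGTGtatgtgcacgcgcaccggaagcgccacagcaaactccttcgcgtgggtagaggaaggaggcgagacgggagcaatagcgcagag

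No capital stands in the Slc6a20b window, and the other 3 windows hold 2, 1 and 3 matches in the order given, none overlapping another. In the Slc6a20a window the GC box and the variant homeodomain core were found on the opposite strand. The Slc6a21 window holds the letters of the amino acid response element core on the opposite strand, from 28 bases before the start site. The bases around that match read as an open frame to the end of the window. The match may therefore lie in coding sequence, and whether this window acts as a promoter was not tested. The Slc6a16 window holds both homeodomain cores and the E-box. The RefSeq promoter table used here held 47 of the 64 members, with 68 windows in all. Of the 17 members without an entry, 3 were called, Slc6a6, Slc7a2 and Slc6a15, so the shares that follow leave them out. Of those windows 51.5% held the GC box and 7.35% the amino acid response element core, against 35.7% and 3.97% of all 32851 windows. The CCAAT box was in 27.9% against 37.4%, the TATA box in 8.82% against 13.6% and the E-box in 13.2% against 7.15%. The homeodomain core was in 8.82% against 5.29% and its variant in 10.3% against 8%. Windows of 1 gene share sequence, so these shares are descriptions.

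Slc6a6, which carries taurine, fell most evenly. It read 6.76, 6.83 and 6.73 in mutant replicates 1 to 3, against 8.08, 7.84 and 8.11 in wild-type replicates 1 to 3. Its mutant values lay within 0.1 of each other and more than 1 log2 unit below every wild-type value. The log2 fold change was -1.24 (SE 0.14, 2.36-fold lower, limma adjusted p = 0.00187). It kept an adjusted p under 0.05 in all 6 fits that left out 1 array, from 0.00472 to 0.0133. The other carriers of GABA, taurine, betaine and creatine that were measured, Slc6a8, Slc6a11, Slc6a12 and Slc6a13, had log2 fold changes of -0.03 to 0.28 and none passed. Over the 6 arrays Slc6a11, Slc6a12 and Slc6a13 had means at or below the receptor-gene level.

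Slc6a9 (GLYT1), the glycine carrier of oocytes, read 8.88, 8.76 and 8.59 in mutant oocytes, against 9.31, 9.25 and 9.47 in wild type. The groups did not overlap, and the log2 fold change was -0.60 (SE 0.14, 1.52-fold lower, adjusted p = 0.0473). This call stands close to the threshold and was lost in each of the 6 fits without 1 array (adjusted p 0.0771 to 0.177), in which the log2 fold change was -0.52 to -0.67. Slc6a5, the neuronal glycine carrier GLYT2, was dim in both genotypes, at 3.99 ± 0.08 and 4.11 ± 0.04 (mutant and wild type, SD, n = 3 each).

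Among the neutral amino acid, proline and orphan carriers of Slc6, 3 of 10 were lower. Slc6a15, which takes up branched-chain amino acids and proline, had the largest measured fall of the members. It read 6.40, 5.75 and 5.35 in mutant replicates 1 to 3, against 7.38, 7.46 and 7.14 in wild type. The mutant samples spread over about 1 log2 unit and all lay below the wild-type ones (log2 fold change -1.49, SE 0.26, 2.82-fold lower, adjusted p = 0.0142). The adjusted p rose above 0.05, to at most 0.0605, without mutant replicate 2, wild-type replicate 1 or wild-type replicate 2.

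The adjacent Slc6a20 genes differed in their values. Slc6a20b read 5.74, 5.78 and 5.70 in mutant oocytes, against 6.98, 6.34 and 6.63 in wild type. Its mutant values were nearly equal and below all wild-type values (log2 fold change -0.91, SE 0.18, 1.88-fold lower, adjusted p = 0.0239). This call was kept in 1 of 6 fits without 1 array, that without wild-type replicate 2, and the log2 fold change was -0.75 to -1.07 in the 6. Slc6a20a, the carrier of proline and betaine, read 7.59, 7.50 and 7.37 in mutant oocytes and 7.43, 7.47 and 7.49 in wild type. Its groups overlapped, and the log2 fold change of 0.02 had a 95% interval of -0.28 to 0.33. Within an array Slc6a20b minus Slc6a20a averaged -1.75 ± 0.09 in mutant oocytes and -0.81 ± 0.34 in wild type (log2, SD, n = 3 each). That is a difference of -0.93 (two-sided exact permutation test, p = 0.1, the smallest that 3 against 3 allows, adjusted p = 0.125 over 5 such pairs chosen after their values were seen, of which the pair Slc6a21 and Slc6a16 is not given because both genes read below the receptor-gene level in the mutant). Whether probes of 1 gene also bind transcripts of the other was not tested.

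Slc6a21 read 3.50, 3.89 and 4.45 in mutant oocytes, against 5.13, 4.81 and 5.04 in wild type. All mutant values lay below the receptor-gene level and all wild-type values above it, so the log2 fold change of -1.05 (SE 0.24, adjusted p = 0.0418) may understate the fall. The call was kept in 1 of 6 fits without 1 array, that without mutant replicate 3 (adjusted p = 0.00822), and was lost in the others (up to 0.146). Its neighbour Slc6a16 was dim throughout, at 4.27 ± 0.07 in mutant and 4.20 ± 0.15 in wild-type oocytes. The remaining carriers of this role, Slc6a7, Slc6a14, Slc6a17, Slc6a18 and Slc6a19, had log2 fold changes of -0.37 to 0.04, and of these Slc6a14 and Slc6a19 had all mutant values below all wild-type values. Slc6a7, which carries proline, read 5.72 ± 0.10 in mutant and 6.09 ± 0.28 in wild-type oocytes (adjusted p = 0.304).

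The monoamine carriers match the naming rule although they do not feed amino acids to a cell. Slc6a4, the serotonin carrier, was the nearest member outside the threshold. It read 5.57, 5.25 and 5.57 in mutant oocytes, against 6.27, 5.90 and 6.38 in wild type. The groups did not overlap (log2 fold change -0.72, SE 0.18, adjusted p = 0.0525). It passed without wild-type replicate 2 (adjusted p = 0.0488). Slc6a2 and Slc6a3, which carry noradrenaline and dopamine, had log2 fold changes of 0.07 and -0.16.

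**Figure D3:**
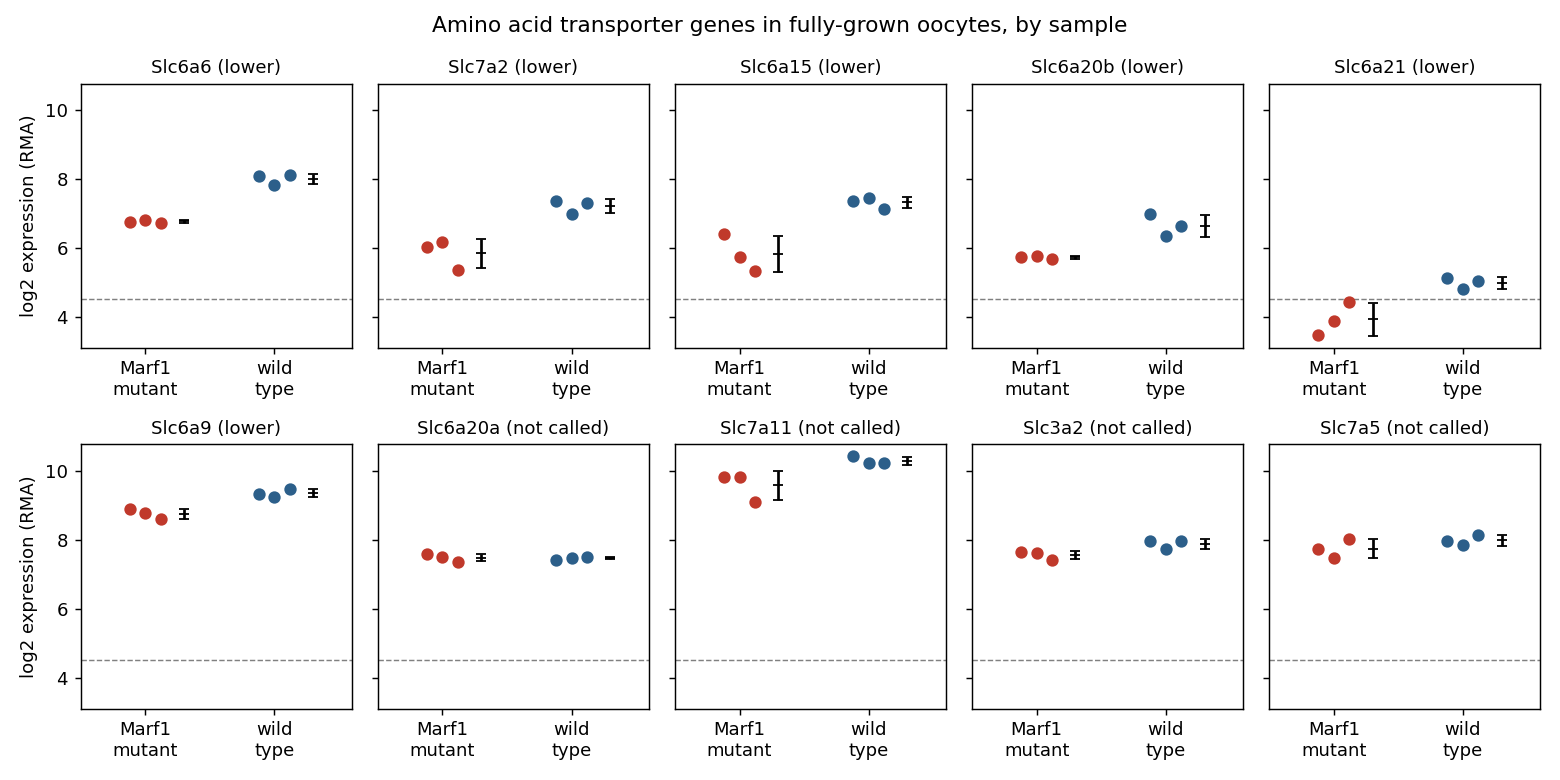
Log2 expression (vertical axis) of 10 members in each sample, Marf1 mutant at left in red and wild type at right in blue, with mean and SD as a black bar and the receptor-gene level as a dashed line. In the 6 genes marked lower the mutant points lie below all wild-type points, while those of Slc6a20a and Slc7a5 overlap.

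Of the 5 cationic carriers and relatives of Slc7, 1 was lower. Slc7a2 (CAT2), which takes up arginine, lysine and ornithine, read 6.03, 6.17 and 5.38 in mutant replicates 1 to 3, against 7.37, 7.0 and 7.31 in wild type. Mutant replicate 3 was the lowest of the 6 and every mutant value lay below every wild-type value. The log2 fold change was -1.37 (SE 0.23, 2.58-fold lower, adjusted p = 0.0117) and -1.13 without mutant replicate 3 (adjusted p = 0.00992). The adjusted p was above 0.05, at most 0.0556, without wild-type replicate 1 or 3. Slc7a1 (CAT1), with the same substrates, read 5.55 ± 0.22 in mutant and 5.91 ± 0.38 in wild-type oocytes, a log2 fold change of -0.36 with a 95% interval of -0.87 to 0.15. Slc7a2 minus Slc7a1 was 0.31 ± 0.38 in mutant and 1.32 ± 0.29 in wild-type arrays (exact permutation p = 0.1, adjusted p = 0.125). Slc7a3, Slc7a4 and Slc7a14 lay below the receptor-gene level in every sample.

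Heavy and light chains form the exchangers of neutral, dibasic and acidic amino acids, the heavy chain bringing the light chain to the membrane. None of these 12 genes passed. Slc7a11 (xCT), the light chain that imports cystine in exchange for glutamate, read 9.82, 9.82 and 9.09 in mutant replicates 1 to 3, against 10.41, 10.21 and 10.22 in wild type. All mutant values were lower, replicate 3 most of all (log2 fold change -0.70, SE 0.22, unadjusted p = 0.0133, adjusted p = 0.111). Without mutant replicate 3 the log2 fold change was -0.46 (adjusted p = 0.103). Slc3a2 (4F2hc), its heavy chain, read 7.64, 7.63 and 7.43 in mutant oocytes and 7.97, 7.72 and 7.96 in wild type, also with no overlap (log2 fold change -0.32, adjusted p = 0.284). Slc7a11 minus Slc3a2 was 2.01 ± 0.30 in mutant and 2.40 ± 0.12 in wild-type arrays (exact permutation p = 0.1, adjusted p = 0.125).

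Slc7a5 (LAT1), the light chain for large neutral amino acids, read 7.72, 7.48 and 8.03 in mutant oocytes and 7.96, 7.84 and 8.14 in wild type, overlapping groups with a log2 fold change of -0.24 (95% interval -0.65 to 0.18). Slc7a5 minus Slc3a2 was 0.18 ± 0.38 in mutant and 0.10 ± 0.10 in wild-type arrays (exact permutation p = 0.9, adjusted p = 0.9). Slc7a6 (y+LAT2) had the highest log2 fold change of the members, 0.42, with 5.44, 5.93 and 5.80 in mutant oocytes against 5.56, 5.42 and 4.94 in wild type (adjusted p = 0.342). Its opposite-strand neighbour Slc7a6os was at 9.88 ± 0.13 in mutant and 9.83 ± 0.10 in wild-type oocytes. The other light chains, Slc7a7, Slc7a8, Slc7a9, Slc7a10, Slc7a12, Slc7a13 and Slc7a15, had log2 fold changes of -0.24 to 0.11, and those of the heavy chain Slc3a1 and of Slc6a19os were 0.003 and -0.04.

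The Slc1 family, carriers of glutamate and aspartate and the neutral exchangers, was dim as a whole. All 7 had a mean at or below the receptor-gene level, and their log2 fold changes ran from -0.34 to 0.25. Slc1a1 (EAAC1), a carrier of glutamate and aspartate, read 3.65, 4.20 and 4.73 in mutant oocytes and 4.26, 4.91 and 4.44 in wild type. The groups overlapped, and the 95% interval of the change, -1.02 to 0.34, was the widest of its role. Slc1a5 (ASCT2), which exchanges glutamine and other neutral amino acids, read 4.11 ± 0.13 in mutant and 4.17 ± 0.13 in wild-type oocytes, and Slc1a4 (ASCT1) 4.31 ± 0.20 and 4.06 ± 0.03.

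In Slc38, Slc38a3 read 4.14, 4.05 and 4.06 in mutant oocytes and 3.89, 4.26 and 4.16 in wild type. This carrier of glutamine and histidine, known from cumulus cells, was below the receptor-gene level in every sample (log2 fold change -0.02, 95% interval -0.36 to 0.32). Slc38a2 (SNAT2), which other cells induce when amino acids are short, read 4.71, 4.79 and 4.93 in mutant oocytes, against 4.58, 4.31 and 4.57 in wild type. All mutant values were higher, by a log2 fold change of 0.32 that did not pass (95% interval -0.02 to 0.66, adjusted p = 0.276). Slc38a4 had lower values in the mutant, at 3.90 ± 0.13 in mutant and 4.23 ± 0.10 in wild-type oocytes (adjusted p = 0.241), both below the receptor-gene level. Slc38a5 read 4.50, 4.61 and 5.11 in mutant oocytes and 4.71, 5.11 and 4.82 in wild type. The remaining genes, Slc38a1, Slc38a6, Slc38a7, Slc38a8, Slc38a10 and Slc38a11, had log2 fold changes of -0.43 to 0.32.

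Slc38a9, the lysosomal carrier that senses arginine for the kinase complex mTORC1, was 1 of 2 members with more than 1 probe set, and its probe sets differed. The brighter one (10407192), which stands for the gene here, read 9.73, 9.54 and 9.19 in mutant oocytes and 9.69, 9.46 and 9.58 in wild type (log2 fold change -0.09, adjusted p = 0.864). The dimmer one (10407209) read 7.87, 8.37 and 7.58 in mutant oocytes, against 6.71, 6.97 and 6.20 in wild type. Those groups did not overlap (log2 fold change 1.31, SE 0.26, adjusted p = 0.0243). With the mean of both probe sets the gene rose by 0.61 (adjusted p = 0.0403). The part of the transcript that each reads was not given in the sources used here. The other such member, Slc38a1, had probe sets at -0.26 and 0.17, both far from the threshold.

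**Figure D4:**
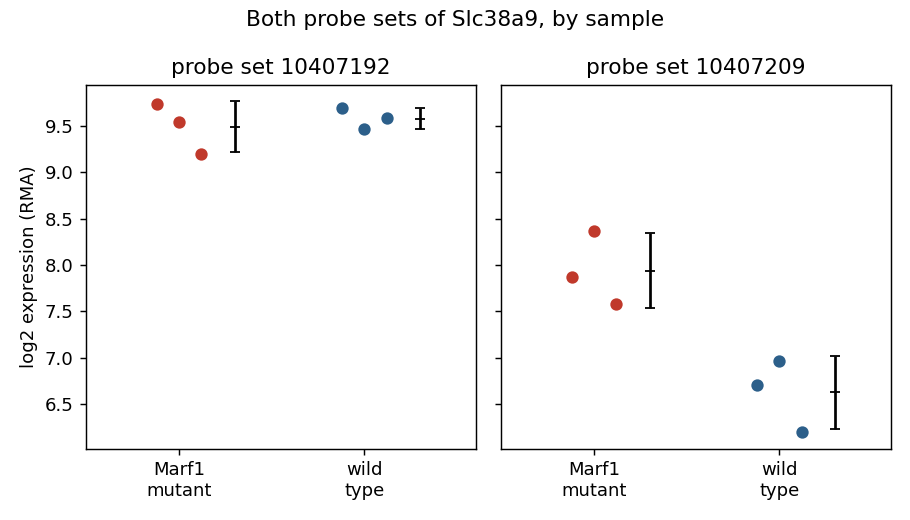
Log2 expression (vertical axis) of both Slc38a9 probe sets in each sample, Marf1 mutant at left in red and wild type at right in blue, with mean and SD as a black bar. The groups overlap on 10407192 and are apart on 10407209, where mutant values start at 7.58 and wild-type values end at 6.97.

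Of the proton-coupled Slc36 carriers, Slc36a1 of lysosomes and brush borders read 5.79, 5.28 and 5.37 in mutant oocytes and 5.27, 5.56 and 5.93 in wild type, with overlap, and the other 3 had means below the receptor-gene level. The log2 fold changes of the 4 ran from -0.26 to 0.03. In Slc43, Slc43a3, which carries purine bases, read 8.03, 8.07 and 7.97 in mutant oocytes, against 8.25, 8.17 and 8.50 in wild type, without overlap (log2 fold change -0.28, SE 0.14, adjusted p = 0.341). Slc43a1 (LAT3) and Slc43a2 (LAT4), carriers of large neutral amino acids, were dim and had log2 fold changes of -0.18 and -0.12.

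**Figure D5:**
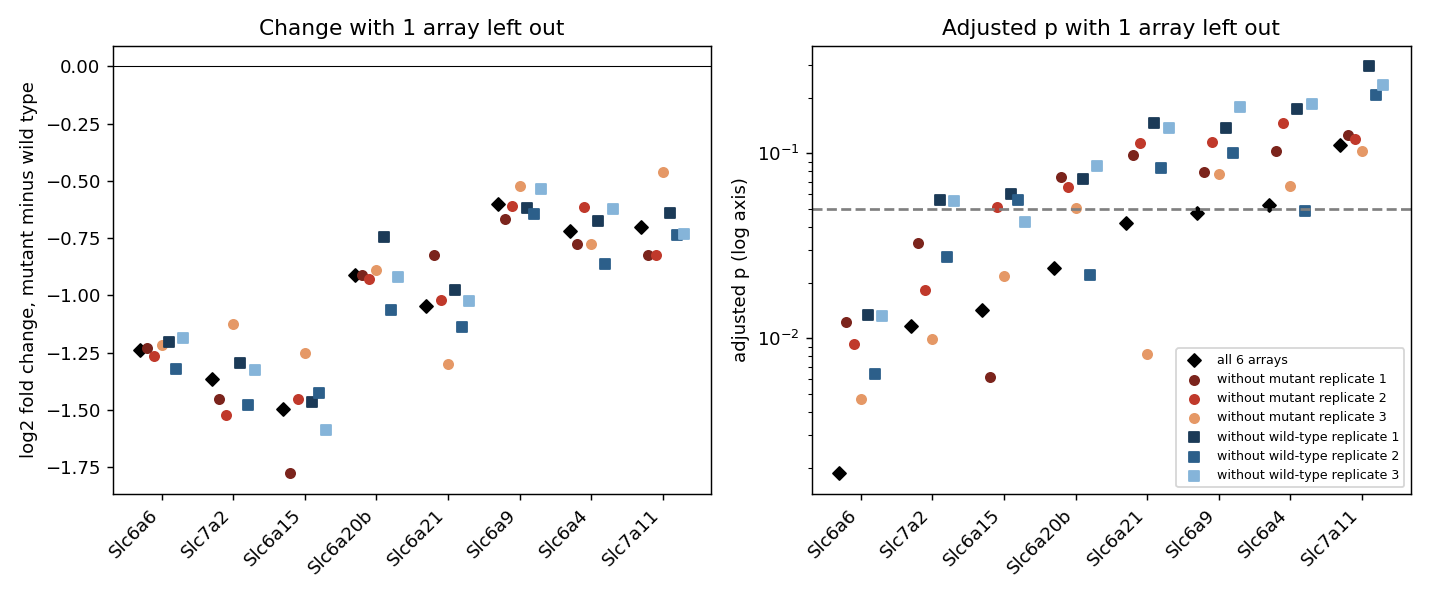
Log2 fold change (left) and adjusted p on a log axis (right) of 8 members with all 6 arrays (black diamonds) and with 1 array left out (circles for mutant, squares for wild-type arrays); the dashed line is 0.05. Every point for Slc6a6 lies under the line, and for Slc6a9 only that with all arrays does.

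Genes on either side of amino acid transport were read from lists that were chosen with earlier results of these data known. Their shares are therefore descriptions. Of 34 measured genes of amino acid sensing by mTORC1, the kinase complex that couples growth to amino acid supply, 6 were higher and 3 lower, with a median log2 fold change of -0.13, against -0.04 over all genes. That is 17.6% higher and 8.82% lower, against 6.4% and 4.04% of all genes, or 10% and 6.33% of the genes above the receptor-gene level, where 32 of the 34 lie. Castor2, a relative of the cytosolic arginine sensor, read 7.80, 7.89 and 6.91 in mutant oocytes, against 5.17, 4.74 and 5.63 in wild type (log2 fold change 2.35, SE 0.32, adjusted p = 0.00426). Castor2 has 2 probe sets, and these values are those of the brighter one alone. Rptor, the scaffold subunit raptor, rose by 1.80, Sesn1 of the leucine-sensing sestrins by 1.42 and Tsc1, which restrains mTORC1, by 1.05. The other called genes, named after their values were seen, were Mlst8, a subunit of the complex (0.88), and Bmt2, also known as Samtor (0.75), both higher, and Nprl2 of the GATOR1 complex (-0.85), Tsc2 (-0.77) and Mtor itself (-0.71), all lower. Castor2, Rptor and Sesn1 passed in all 6 fits without 1 array, Tsc1 in 2, Nprl2 in 3, Mtor in 2 and Tsc2, Mlst8 and Bmt2 in 1 each. Without mutant replicate 3 the list had 7 higher and 2 lower.

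Of 19 genes of the amino acid response through Atf4, 3 were higher and 1 lower, with a median log2 fold change of -0.04. The share lower, 5.26%, is close to the 4.04% of all genes, and the share higher was 15.8%, against 6.4%. Of the genes above the receptor-gene level, where 17 of the 19 lie, 6.33% were lower and 10% higher. The kinase Eif2ak3 (PERK) of endoplasmic reticulum stress rose by 2.58, Psph of serine synthesis by 1.70 and Chac1, which degrades glutathione, by 1.56. Eif2ak4 (GCN2), the sensor of uncharged tRNA, read 5.83, 5.59 and 5.84 in mutant oocytes, against 7.14, 6.86 and 6.68 in wild type (log2 fold change -1.14, adjusted p = 0.00635). All 4 passed in all 6 fits without 1 array. Glutathione synthesis uses the cystine and glycine that Slc7a11 and Slc6a9 carry. Among 9 genes of glutathione synthesis, breakdown and recycling 0 passed in limma, with a median of -0.25. At an unadjusted p under 0.05, 2 were lower and 0 higher. These were Gclm of synthesis (-0.47) and Chac2, a relative of Chac1 (-1.05). Of 13 genes listed as amino acid carriers outside the 7 families 0 passed, with 1 higher at an unadjusted p under 0.05 and a median of -0.01. The lowest value in that list, -0.60, was that of Slc35f2, which is not known as an amino acid carrier. Of 12 cell volume regulators 2 were higher and 0 lower, with 3 higher and 2 lower at an unadjusted p under 0.05 and a median of 0.08. The 2 are 16.7% of the list, against 6.4% of all genes called higher. Of the genes above the receptor-gene level, where 10 of the 12 lie, 10% were called higher. At an unadjusted p under 0.05 all genes had 11% higher and 13.5% lower. The 2 called regulators were the sodium, potassium and chloride cotransporter Slc12a2 (1.28) and Oxsr1 (1.26), a kinase that activates it. Both passed in all 6 fits without 1 array.

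Markers of cumulus and granulosa cells were set beside these results, since stripped oocytes can carry remnants of them. Of 14 measured, Kitl (log2 fold change 1.94) and Nr5a2 (1.46) were higher and Ptgs2 (-1.0) lower, and the mean level of the list was 4.53 to 4.88 on mutant and 4.57 to 4.64 on wild-type arrays. Kitl and Nr5a2 passed in all 6 fits without 1 array, and Ptgs2 (limma adjusted p = 0.0409) in 1. The mutant mean of Ptgs2 (4.14) and the wild-type mean of Kitl (3.72) lay below the receptor-gene level. Besides Kitl, Nr5a2 and Ptgs2, the means over all arrays of Foxl2 (5.11), Has2 (5.03), Inhba (4.80) and Inha (4.61) lay above the receptor-gene level, and those of Amh, Amhr2, Fshr, Cyp11a1, Hsd3b1, Ptx3 and Tnfaip6 lay below it. Of 10 markers of theca or stroma, Pdgfra was higher (0.67, adjusted p = 0.0299, passing in 0 of 6 fits without 1 array) and 0 were lower, with list means of 4.09 to 4.40 on mutant and 4.11 to 4.30 on wild-type arrays. The means of Col1a1 (5.60), Col1a2 (5.40), Col3a1 (4.87) and Pdgfra (4.55) lay above the receptor-gene level, and those of the other theca or stroma markers below it. Of 7 markers of blood, immune or endothelial cells, Pecam1 was lower (-1.07, adjusted p = 0.0144, passing in 4 of 6) and 0 were higher. List means were 4.29 to 4.38 and 4.32 to 4.51 (mutant and wild type). The means of Pecam1 (6.73) and of Cd68 (5.37, log2 fold change 0.45, not called) lay above the receptor-gene level. Those of the pan-leukocyte marker Ptprc, the endothelial marker Cdh5, Csf1r, Kdr and Emcn lay below it.

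Of the 15 oocyte markers, Kit, the receptor of the ligand that Kitl encodes, was lower and 0 were higher. It read 7.92, 7.96 and 7.81 in mutant oocytes, against 9.16, 8.91 and 9.47 in wild type (log2 fold change -1.28, SE 0.17, adjusted p = 0.00419), and passed in all 6 fits without 1 array. That 1 call is 6.67% of the list, against 6.33% of all genes above the receptor-gene level called lower. At an unadjusted p under 0.05, 3 were lower, Kit, Nlrp5 (-0.45) and Padi6 (-0.44), and 0 higher. All genes had 13.5% lower and 11% higher at that p. Of the log2 fold changes in the list 12 were below 0 and 3 above, with a median of -0.09. The mean of the list was 9.87 to 10.18 on mutant and 10.12 to 10.30 on wild-type arrays. The part of other cells, or of a lower level of oocyte transcripts, in the falls of the carriers was not tested.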

How the data were processed

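Each of 3 Marf1-mutant and 3 wild-type samples of mouse fully-grown oocytes was read on its own array, with groups and replicate numbers from the sample titles. The authors deposited log2 expression values with 2 decimals, 1 for each probe set and array. Per the submitters' processing notes, GCOS, Affymetrix Expression Console 1.1 and RMA were used; settings and genome build are not given in the sources used here. The number of arrays limits the precision. Probe sets were named through the platform annotation: 21789 of 35556 rows named 1 gene, and all 64 members matched RefSeq by Entrez ID.

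Mutant and wild-type arrays were tested against each other in R 4.3.3 with limma 3.58.1 (moderated test with default settings, genotype alone in the model, two-sided), with Benjamini-Hochberg adjustment over all rows. Intervals of 95% came from the moderated t distribution. Named members were those past the threshold, those changed at least 2-fold without passing (0 genes), the 10 with the highest wild-type mean, the highest of each role, and 10 carriers known from oocytes, cumulus cells or embryos; other members named individually were chosen after their values were seen. From each other list the genes past the threshold were named, up to 4 with the largest change. Others named from the mTORC1, glutathione and marker lists were chosen after their values were seen. Members, lists and alternatives were chosen with earlier results of these data known. Promoter sequences are RefSeq's for GRCm38.p6. The pipeline was tested on simulated data. A fit with the replicate number, other normalizations, filters, row choices, variance priors, array weights and fits without each array were the 15 alternatives.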

Additional observations from a re-analysis of the deposited data

How the results depend on the processing

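Under 15 alternatives the log2 fold changes of the 6 called members stayed below 0 wherever they were tested, and Slc6a6 passed in all of them. The sign could not change in the fits without 1 array, since every mutant value of the 6 lay below every wild-type value. For these 6, median centring, the filter, row choices, variance prior and replicate block returned the log2 fold changes of the main fit. The unchanged sign is therefore no measure of stability. Leaving out 1 array left 1 to 4 members lower and 0 higher, and over all rows 297 to 896 lower and 1071 to 1908 higher. Replicate numbers showed no clear pairing of the arrays: deviations of same-numbered mutant and wild-type arrays correlated at 0.15, -0.10 and 0.03. Mutant replicates 1 and 2 correlated best with wild-type replicate 1 (0.15 and 0.14), and mutant replicate 3 with wild-type replicate 2 (0.18). Deviations from a mean of 3 constrain each other, so whether same-numbered arrays shared a batch cannot be told from them. The fit with the replicate block had 3 members lower, Slc6a6, Slc7a2 and Slc6a15, and over all rows 556 lower and 1390 higher. Using the mean of all rows of a gene gave 1 member higher, Slc38a9, and 8 lower, where 1717 of 19938 genes were higher and 1520 lower. Quantile normalization had 7 lower, cyclic loess 5 and median centring 5, Slc6a9 being absent from the last 2. Testing 1 row per gene had 8 lower, with Slc6a4 and Slc7a11 added, where 1514 of 19938 genes were lower and 1708 higher. Over all rows the calls were 1700 higher and 1065 lower as deposited, 1778 and 1384 after quantile normalization, 2020 and 717 after cyclic loess and 1393 and 669 after median centring. Chosen after seeing the data, fits of the other lists without 1 array had 3 to 7 mTORC1 genes higher and 0 to 2 lower, and 3 Atf4-response genes higher and 1 to 2 lower (7 and 2, and 3 and 2, without mutant replicate 3). The filter on rows above the median level could give no value for 39 members, Slc6a21 among them, and had 6 of 25 lower. In that fit 1646 of all 17766 rows tested were lower and 1922 higher. Members near the receptor-gene level have little signal over background, and the deposited values hold no measure of it.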

Other observations

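The other Slc genes on the array, 298 outside the 7 families, had 21 higher and 12 lower in mutant oocytes, and a median log2 fold change of -0.04. These shares, 7.05% and 4.03%, are close to the 6.4% and 4.04% of all genes. Of the 182 among them above the receptor-gene level, 20 were higher and 11 lower (11% and 6.04%, against 10% and 6.33% of all genes above that level), with a median of -0.05. The difference between these genes and the amino acid transporter genes was not tested.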
